A study of Mus musculus with 9 samples.

Results

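Transcript levels of 8 T-box factors, Tbx1, Tbx2, Tbx3, Tbx4, Tbx5, Tbx15, Tbx18 and Tbx20, were followed in the mouse urogenital sinus across exposure and age. The members were the probe sets annotated to one of these gene symbols alone, which came to 18 of the 45101 probe sets on the array and 8 of the 18193 genes with a probe set of their own. Tbx3 had 5 probe sets, Tbx20 had 3, Tbx4, Tbx5, Tbx15 and Tbx18 had 2 each, and Tbx1 and Tbx2 had 1 each. The family was chosen with earlier results of these arrays in view, among them a lower Tbx20 signal at P0 than at E17, so the values by age below are a description with no test.

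The 9 Affymetrix arrays each held RNA of urogenital sinus from C57BL/6 mice, with bladder, urethra, Wolffian and Mullerian ducts and seminal vesicle dissected away. The urogenital sinus is the embryonic tube from which prostate, urethra and part of the vagina form, and its mesenchyme directs the budding of its epithelium. Dams of the BPA group received bisphenol A, a weakly estrogenic building block of plastics, at 20 µg/kg/day from E13 to E16. Dams of the DES group received diethylstilbestrol, a synthetic estrogen, at 0.2 µg/kg/day over the same days. Both agents were given in tocopherol-stripped corn oil, and the controls are labelled as exposed to vehicle. Each group had 1 array at embryonic day 17 (E17), 1 at embryonic day 18 (E18) and 1 on the day of birth (P0). The labels speak of male and female tracts together and give neither a sex nor a number of animals or litters for an array. An agent's 3 ages were therefore its only repeats, and p-values measure only how far these arrays scatter, some of which may be technical. In the agent comparisons this scatter also holds any change of an agent's difference with age.

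T-box factors bind DNA through a conserved domain, the T-box, and set the identity and growth of mesodermal tissues, each as an activator, a repressor or both. Tbx2 and Tbx3 act mainly as repressors, and in the mouse both keep the mesenchyme of the ureter proliferating. Tbx4 and Tbx5 start hindlimb and forelimb outgrowth through Fgf10, Tbx18 marks the mesenchyme that becomes ureteric smooth muscle, Tbx15 shapes skeletal elements and fast muscle fibres, Tbx1 patterns the pharynx and its muscles, and Tbx20 is a regulator of heart muscle and valves.

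The deposited signals were not on a common scale, with 2% trimmed means that were lowest on BPA P0 (157) and highest on DES E17 (277), and all values below are quantile-normalised signals. Markers of posterior mesenchyme were present throughout: Hoxd13 read 1080.3 to 1596, Hoxa13 read 216 to 371 and Foxf1 read 911 to 1199 over the 9 arrays. The BPA P0 array stood apart from the rest. Hsd3b1, a steroid dehydrogenase of gonad and adrenal, read 886 there and at most 10.4 on the other 8 arrays, and Krt10, a keratin of skin, read 6327 there against 277 on the control P0 array. The BPA E18 array also carried skin signal, with Krt10 at 1253 against 262 on its control. The BPA differences described below are therefore also given without the BPA P0 array. Probe sets needed a signal of 41.0 on average for testing. Of 11 heart muscle genes 7 reached it and 4 (Nppa, Myl2, Myl7 and Tnni3) did not. Among those that reached it, Tnnt2 read 1522 to 3712, Myh7 read 157 to 436, Nppb read 85.1 to 118 and Myh6 read 25.6 to 119.8. Gja5, a T-box target of heart muscle, read 2.23 to 6.77. Of the 18 T-box probe sets 14 reached the testing level, among them the brightest, or leading, probe set of each of the 8 genes.

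Tbx2 and Tbx3, the repressors, varied little over the arrays in their brightest probe sets, and Tbx2 was lowest after DES. Tbx2 read 729, 679.8 and 753 at E17, E18 and P0 on the BPA arrays, 627, 604 and 551 on the DES arrays, and 719, 725 and 867 on the control arrays. The 3 DES arrays thus lay below all 6 others. The leading Tbx3 probe set read 1474, 1478 and 1314 on the BPA arrays, 1226, 1361 and 1395 on the DES arrays, and 1243, 1517 and 1821 on the control arrays. The control P0 array was the highest of the 9 and the DES E17 array the lowest, and the groups overlapped. The next brightest Tbx3 probe set, 1448029_at, read 1394, 1254 and 1066 on the BPA arrays, 1175, 1237 and 1389.6 on the DES arrays, and 1495, 1449 and 1702 on the control arrays. Here every exposed array lay below every control array. Of the remaining Tbx3 probe sets, 1445757_at ran from 52.6 to 166, 1439567_at from 21.1 to 64.2, and 1444594_at, which was not tested, stayed at or below 6.23.

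Tbx4 and Tbx5, the limb initiation pair, differed in how steady their leading probe sets were. Tbx4 read 222, 219 and 218 on the BPA arrays, 209.7, 239 and 212 on the DES arrays, and 245, 213 and 233 on the control arrays. Its highest array exceeded its lowest by 1.17 times, the narrowest span of the 18 probe sets. The second Tbx4 probe set, 1426321_at, was less steady, running from 64.4 to 132, a span of 2.05 times. Tbx5 read 119, 72.4 and 72.6 on the BPA arrays, 142, 174 and 101 on the DES arrays, and 135, 139.7 and 123 on the control arrays. All 3 BPA arrays lay below all 3 control arrays, by little at E17 and by more at E18 and P0. The second Tbx5 probe set was too dim for testing and read 32.2, 19.0 and 22.5 on the BPA arrays, 53.7, 42.5 and 48.2 on the DES arrays, and 29.2, 49.6 and 42.1 on the control arrays, so at E17 the BPA array was not below its control. In the RefSeq gene table of GRCm38.p6, Tbx2 and Tbx4 are neighbours on chromosome 11 with 0 protein-coding genes between them, and so are Tbx3 and Tbx5 on chromosome 5.

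Tbx1, Tbx15 and Tbx18 were mostly higher at P0 than at E17. Tbx1 read 35.0, 57.3 and 89.9 at E17, E18 and P0 on the BPA arrays, 78.5, 75.5 and 104 on the DES arrays, and 63.8, 67.0 and 129 on the control arrays. The 3 P0 arrays were the 3 highest. Tbx15 read 24.0, 92.3 and 82.7 on the BPA arrays, 90.6, 113 and 132 on the DES arrays, and 84.2, 143 and 128 on the control arrays. Its BPA E17 array stood far below the rest, and its BPA array was the lowest at every age. The leading Tbx18 probe set read 208, 342 and 269 on the BPA arrays, 264, 254 and 329 on the DES arrays, and 228, 229 and 339.5 on the control arrays. The P0 arrays lay above the E17 arrays, and the highest single value was that of BPA E18.

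Tbx20 had the clearest age pattern of the family. Its leading probe set read 273, 229.6 and 136 at E17, E18 and P0 on the BPA arrays, 308, 185 and 155 on the DES arrays, and 256, 180.0 and 149.6 on the control arrays. Each age was separate from the next, with E17 highest and P0 lowest in all 3 groups. Age accounted for 90.8% of the sum of squares of this probe set and agent for 1.79%, where the medians over all 27022 tested probe sets were 27.5% and 21.9%. These shares are a description only, since the family was chosen with the age difference of Tbx20 on these same arrays already known. Since whole tissue was hybridised, fewer cells with a transcript and less of it per cell cannot be told apart, for Tbx20 and for every other member.

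**Figure D1:**
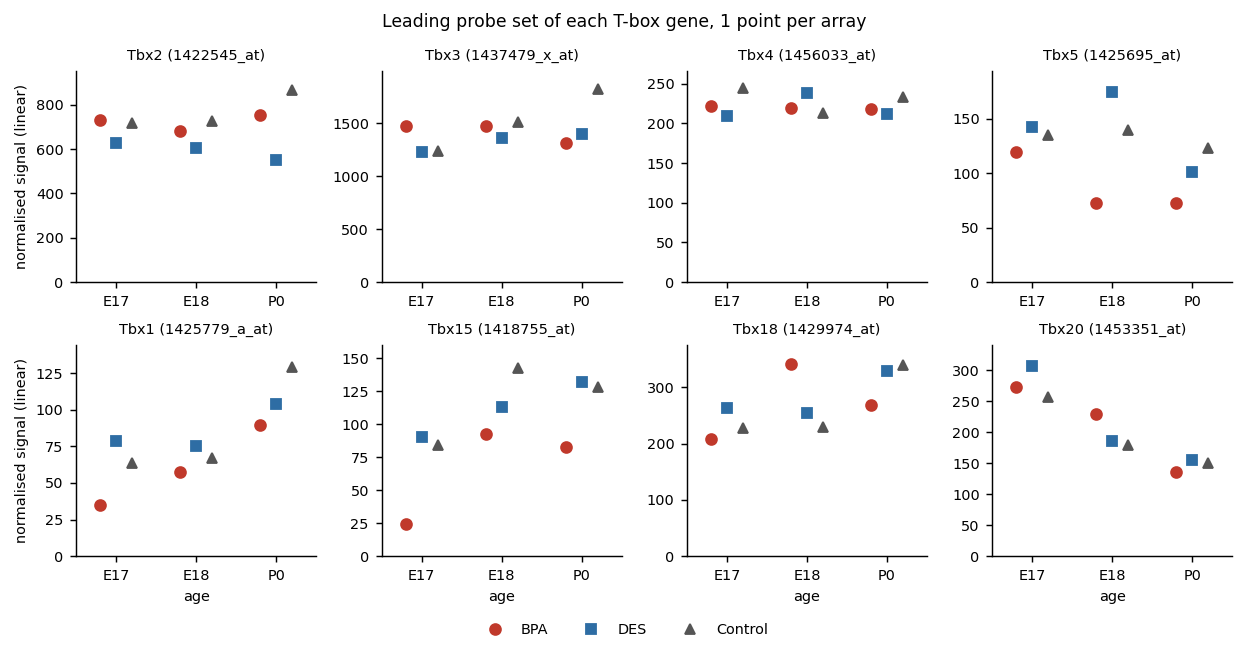
Normalised signal (linear scale from 0, vertical axis) of the leading probe set of each T-box gene at E17, E18 and P0 (horizontal axis), 1 point per array, with red circles for BPA, blue squares for DES and grey triangles for control. Tbx20 steps down with age in all 3 groups, the DES points of Tbx2 lie lowest at each age, and the BPA points of Tbx15 lie lowest at each age.

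Between P0 and E17 the leading Tbx20 probe set differed by -0.90 ± 0.12 log2 units (mean and SD of the 3 within-agent differences), at -0.98 with BPA, -0.96 with DES and -0.76 in controls. A second Tbx20 probe set, 1425158_at, differed by -0.35 ± 0.22 and was also lower at P0 in each group, reading 52.6, 55.2 and 54.6 at P0 on the BPA, DES and control arrays, against 71.7, 59.9 and 82.2 at E17. The other Tbx20 probe set, 1422219_a_at, was too dim for testing and did not follow, at 0.04 ± 0.71. Tbx1 differed by 0.86 ± 0.44 (1.24 with BPA, 0.38 with DES and 0.96 in controls). The Tbx18 probe sets differed by 0.41 ± 0.13 and by 0.27 ± 0.04, and the second of them overlapped between the ages.

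Tbx15 differed by 0.89 ± 0.60 between P0 and E17, at 1.58 with BPA, 0.52 with DES and 0.57 in controls. On average its difference lay between E18 and E17, at 0.92 ± 0.73, with 92.3 to 143 at E18 and 24.0 to 90.6 at E17. By group this step was 1.73 with BPA, where the E17 array was very low, 0.30 with DES and 0.72 in controls. With DES a further 0.22 lay between P0 and E18. Tbx5 differed by -0.43 ± 0.27 between P0 and E17, the leading Tbx3 probe set by 0.19 ± 0.36, Tbx2 by 0.04 ± 0.23 and Tbx4 by -0.03 ± 0.05. For Tbx2, Tbx3 and Tbx4 the SD exceeded the size of the mean, and the groups disagreed in sign.

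Counted by overlap, 2 of 14 tested T-box probe sets were lower on all 3 P0 arrays than on all 3 E17 arrays, both of Tbx20, and 2 were higher, Tbx1 and the leading Tbx18 probe set. Over all tested probe sets 9.92% were lower and 9.94% higher by the same count, so the members' shares were not far from the background. A stepwise decline with no overlap between any of the 3 ages was seen for 1 of 14, the leading Tbx20 probe set, against 0.229% of all, and a stepwise increase for 0 of 14, against 0.333%. The Tbx20 share is printed as a description, since this gene was selected on the same contrast. Without the BPA P0 array the differences between P0 and E17 were -0.86 for Tbx20, 0.67 for Tbx1, 0.44 for Tbx18 and 0.55 for Tbx15. With deposited signals, where the median of all probe sets was -0.29, Tbx20 was at -1.19 and still without overlap, while Tbx1 (0.56) and Tbx18 (0.11) overlapped.

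**Figure D2:**
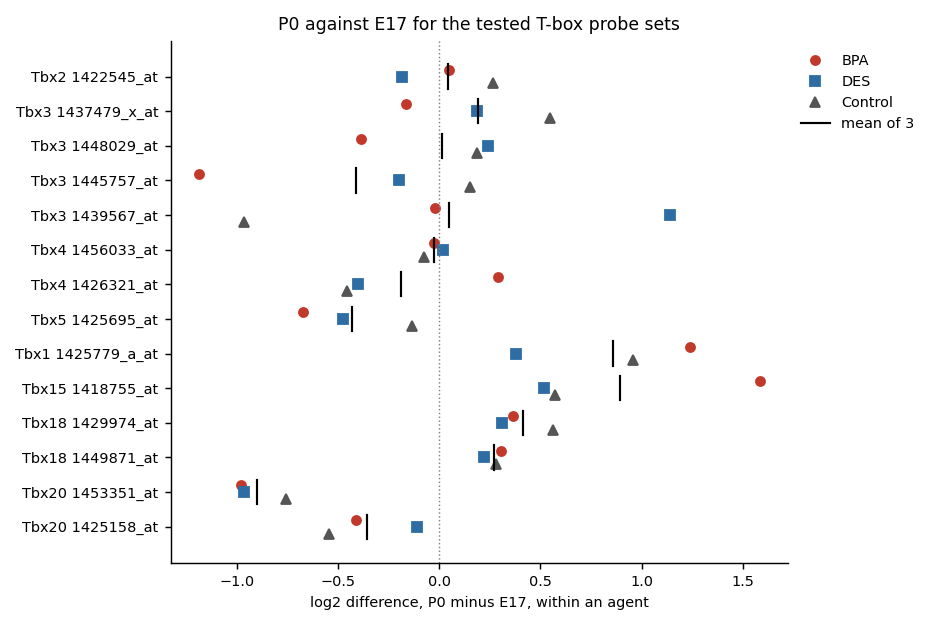
Log2 difference of P0 minus E17 within each group (horizontal axis) for the 14 tested T-box probe sets (vertical axis), with red circles for BPA, blue squares for DES, grey triangles for control and a black bar for their mean. The points of the leading Tbx20 probe set cluster between -0.98 and -0.76, whereas those of Tbx3 1439567_at spread from -0.96 to 1.14.

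Markers of muscle also differed by age. The mean log2 signal of 14 skeletal muscle genes was 9.20 to 9.62 on the P0 arrays and 7.89 to 8.78 on the E17 arrays. Not all of these genes rose: Des read 870, 636 and 555 at P0 on the BPA, DES and control arrays, against 1019, 681 and 749 at E17. Ckm was also lower at P0 with BPA and in controls, but higher with DES. The mean of 9 smooth muscle genes was 10.03 to 10.78 at P0 and 10.77 to 11.36 at E17, with a slight overlap. The 11 heart muscle genes, 4 of them below the testing level, averaged 6.54 to 6.79 at P0 and 6.55 to 6.85 at E17. Single genes of this list went different ways. Tnnt2 read 2366, 2189 and 1522 at P0 on the BPA, DES and control arrays, against 3712, 2651 and 3297 at E17. Gata4 read 228 on the BPA P0 array against 57.4 on the BPA E17 array. That array was also the one with the high Hsd3b1 signal. With DES Gata4 read 41.3 at P0 against 34.6 at E17, and in controls 53.2 against 63.2. The flat mean therefore does not show an unchanged heart muscle content. The part of muscle content in the values of Tbx1, Tbx15, Tbx18 and Tbx20 was not tested.

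The promoters of the 3 genes whose P0 and E17 arrays did not overlap are shown so that the letters bound by the family can be looked for in them. RefSeq promoter entries (GRCm38.p6) matched 4 of the 8 members, namely Tbx1 with 2 start sites, Tbx4, Tbx18 and Tbx20. The 250 bases before the start site are printed on the strand of the gene, with the core of the T-box element (GGTGT, or ACACC on the other strand) in capitals. They lie at chr9:24774304-24774553 on the minus strand for Tbx20, chr16:18590672-18590921 on the minus strand for Tbx1 and chr9:87731261-87731510 on the minus strand for Tbx18.
Tbx20: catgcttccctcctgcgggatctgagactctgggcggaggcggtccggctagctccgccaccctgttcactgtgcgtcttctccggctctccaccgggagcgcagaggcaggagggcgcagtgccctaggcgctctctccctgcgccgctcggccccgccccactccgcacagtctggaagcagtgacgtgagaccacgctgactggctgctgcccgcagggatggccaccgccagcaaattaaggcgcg
Tbx1: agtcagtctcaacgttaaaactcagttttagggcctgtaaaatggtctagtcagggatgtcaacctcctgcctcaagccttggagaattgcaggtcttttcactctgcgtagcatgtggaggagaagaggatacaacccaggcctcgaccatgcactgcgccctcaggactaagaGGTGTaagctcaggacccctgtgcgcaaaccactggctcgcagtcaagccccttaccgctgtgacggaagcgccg
Tbx18: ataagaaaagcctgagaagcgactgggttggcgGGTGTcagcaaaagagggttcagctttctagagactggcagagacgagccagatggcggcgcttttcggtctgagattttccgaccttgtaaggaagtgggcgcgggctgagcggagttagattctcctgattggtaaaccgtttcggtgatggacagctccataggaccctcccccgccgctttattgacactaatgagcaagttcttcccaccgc
The printed Tbx1 window held the core once, beginning at -75 from its start site, and the Tbx18 window once, at -217. The window of the other Tbx1 start site, the Tbx20 window and the Tbx4 window had 0 matches. Of 32851 windows of the same length in the table, 36.2% held the core on either strand, and 3.33% held the longer letters GGTGTGA or TCACACC, which contain the core and were in 0 of the member windows. A match is a description of letters and not of binding.

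Whether exposure to BPA shifted these factors was asked by comparing the BPA arrays with the control arrays of the same ages. By limma with Benjamini-Hochberg adjustment, 0 of 14 T-box probe sets passed at 0.05, as did 0% of all 27022 probe sets (smallest adjusted p = 0.0801, with 2120 probe sets at an unadjusted p under 0.05). At an unadjusted p under 0.05, 4 of 14 were lower after BPA, against 4.31% of all, and 0 were higher, against 3.53% of all. These were the leading Tbx15, Tbx5 and Tbx1 probe sets and Tbx3 1448029_at. All 3 BPA arrays lay below all 3 control arrays for 2 of 14 (Tbx5 and Tbx3 1448029_at), where 5.26% of all did, and above them for 0, where 5.05% did. Differences below 0 were found for 11 of 14 with a median of -0.09, beside 51.0% of all probe sets and a median of -0.0043.

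Tbx15 had the largest difference of the tested members, -0.93 ± 0.26 log2 units (SE, 95% interval -1.51 to -0.36, limma adjusted p = 0.445), at -1.61, -0.60 and -0.60 at E17, E18 and P0. Its signal averaged 66.3 ± 37.0 on the BPA arrays and 118 ± 30.4 on the control arrays (SD, n = 3 each). Without the BPA P0 array the difference was -1.08, and without the BPA E17 array, where it is widest, it was -0.56. The dim second probe set, 1422195_s_at, differed by -1.16 and -0.53 at E17 and E18 and by 0.99 at P0. Tbx5 differed by -0.60 ± 0.21 (95% interval -1.06 to -0.14, limma adjusted p = 0.506), at -0.18, -0.90 and -0.72 over the ages, with 88.0 ± 26.9 on the BPA arrays and 133 ± 8.79 on the control arrays. Without the BPA P0 array it stood at -0.62, and without the BPA E18 array at -0.38. Both of these arrays carried the skin signal described above. On the remaining BPA array, E17, the Tbx5 difference was only -0.18. With deposited or trimmed-mean scaled signals its BPA and control arrays overlapped, at -0.80 and -0.57.

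Tbx1 differed by -0.49 ± 0.21 (95% interval -0.97 to -0.01, limma adjusted p = 0.626) and was lower at every age, at -0.77, -0.21 and -0.50 over the ages. Without the BPA P0 array this was -0.58, and without the BPA E17 array -0.29. Tbx3 1448029_at differed by -0.33 ± 0.12 (limma adjusted p = 0.536), with -0.67 at P0 as the largest of its 3 ages. Without the BPA P0 array it was at -0.15. The leading Tbx3 probe set was at -0.09 ± 0.12 and turned to 0.05 without the BPA P0 array. Tbx3 1445757_at was at -0.56 ± 0.28, and at -0.14 without that array. Tbx3 1439567_at had the other sign, at 0.36 ± 0.40, and at 0.29 without that array. For the others the intervals spanned 0: -0.33 to 0.15 for Tbx2, -0.34 to 0.22 for Tbx4, -0.36 to 0.43 for the leading Tbx18 probe set and -0.22 to 0.42 for Tbx20. Without the BPA P0 array these differences were -0.11 for Tbx2, -0.06 for Tbx4, 0.18 for Tbx18 and 0.20 for Tbx20.

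The mean of the skeletal muscle markers and Tbx15 were lowest on the same array. The mean log2 signal of the 14 muscle genes, of which 13 reached the testing level, was 7.89, 8.98 and 9.20 after BPA at E17, E18 and P0, against 8.71, 9.26 and 9.43 in controls. Myh8, the perinatal myosin heavy chain, read 109.95, 344 and 889 after BPA and 258, 896 and 1023 on the control arrays. Myod1, a myogenic regulator, read 89.7 on the BPA E17 array and 217 to 371 on the others. The list was not uniform: at E17, 10 of the 14 genes were lower after BPA than in the control and 4 were higher. Ckm, the muscle creatine kinase, and Des, the filament protein desmin, read 1039.8 and 1019 on the BPA E17 array, each the highest of the 9. Tnnt3, a fast troponin, read 233 after BPA at E17, against 229 in the control. The 9 epidermis genes averaged 7.39, 8.90 and 9.99 after BPA, against 6.83, 6.83 and 6.75 in controls. The 9 smooth muscle genes averaged 11.36, 11.11 and 10.78 after BPA, against 11.06, 10.05 and 10.03 in controls. The 6 urothelium genes averaged 9.79, 9.64 and 9.35 after BPA, against 9.06, 8.92 and 9.16 in controls, and the 5 genes of neurons and glia 8.98, 9.12 and 9.16, against 9.16, 9.45 and 9.26. What part these cells have in the Tbx15, Tbx5 and Tbx1 differences was not tested.

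**Figure D3:**
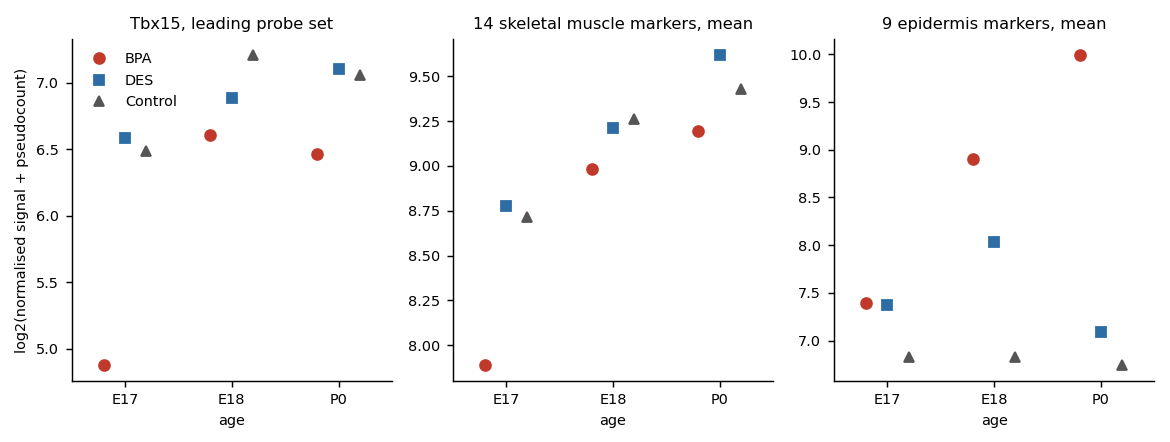
Log2 of normalised signal plus pseudocount (vertical axes, which do not start at 0) at E17, E18 and P0 for the leading Tbx15 probe set, the mean of 14 skeletal muscle genes and the mean of 9 epidermis genes, 1 point per array, with red circles for BPA, blue squares for DES and grey triangles for control. The BPA E17 array is lowest for Tbx15 and for the muscle genes (7.89), and the epidermis mean is highest on the BPA P0 array (9.99).

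The comparison of DES with control sets a potent estrogen beside these values. By limma 0 of 14 T-box probe sets passed, as did 0% of all (smallest adjusted p = 0.844, with 1521 at an unadjusted p under 0.05). At an unadjusted p under 0.05, 2 of 14 were lower, Tbx2 and Tbx3 1448029_at, against 2.73% of all, and 0 were higher, against 2.9%. The same 2 probe sets had all 3 DES arrays below all 3 control arrays, as did 5.04% of all, and 0 had them above, where 5.86% of all did. Differences below 0 were found for 10 of 14 with a median of -0.07, beside 49.2% of all and a median of 0.0035.

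Tbx2 was lower after DES, with a difference of -0.37 ± 0.11 log2 units (SE, 95% interval -0.61 to -0.13, limma adjusted p = 0.844), at -0.20, -0.26 and -0.65 at E17, E18 and P0. Its signal averaged 594 ± 39.1 on the DES arrays and 770.4 ± 83.6 on the control arrays (SD, n = 3 each). Agent accounted for 74.6% of its sum of squares, and the arrays of DES and control stayed apart under all 3 scalings. Tbx3 1448029_at differed by -0.29 ± 0.12 (adjusted p = 0.844), close to evenly over the ages (-0.35, -0.23 and -0.29), and the leading Tbx3 probe set by -0.19 ± 0.12. The leading probe sets of Tbx4, Tbx5, Tbx1, Tbx15, Tbx18 and Tbx20 had differences between -0.06 and 0.12, with the widest interval for Tbx15 (-0.64 to 0.52). Markers of other cells also differed: after DES the urothelium genes averaged 9.12, 9.41 and 9.64 at E17, E18 and P0, against 9.06, 8.92 and 9.16 in controls. The smooth muscle genes averaged 10.77, 10.80 and 10.57 after DES, against 11.06, 10.05 and 10.03 in controls, and the epidermis genes 7.38, 8.04 and 7.09, against 6.83, 6.83 and 6.75. The 5 genes of neurons and glia averaged 9.13, 9.04 and 9.04 after DES, against 9.16, 9.45 and 9.26 in controls. At E17, E18 and P0, 3, 5 and 4 of these 5 genes were lower than in the control. The part of these cells in the Tbx2 difference was not tested.

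BPA and DES were given at different doses, so their values stand side by side only. The difference from control was -0.93 with BPA and -0.06 with DES for Tbx15, -0.60 and 0.03 for Tbx5, -0.49 and 0.05 for Tbx1, and -0.09 and -0.37 for Tbx2. These pairs share the control arrays. In the fit of BPA against DES, 0 of 14 T-box probe sets and 0% of all passed in limma (smallest adjusted p = 0.542, with 1947 at an unadjusted p under 0.05).

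**Figure D4:**
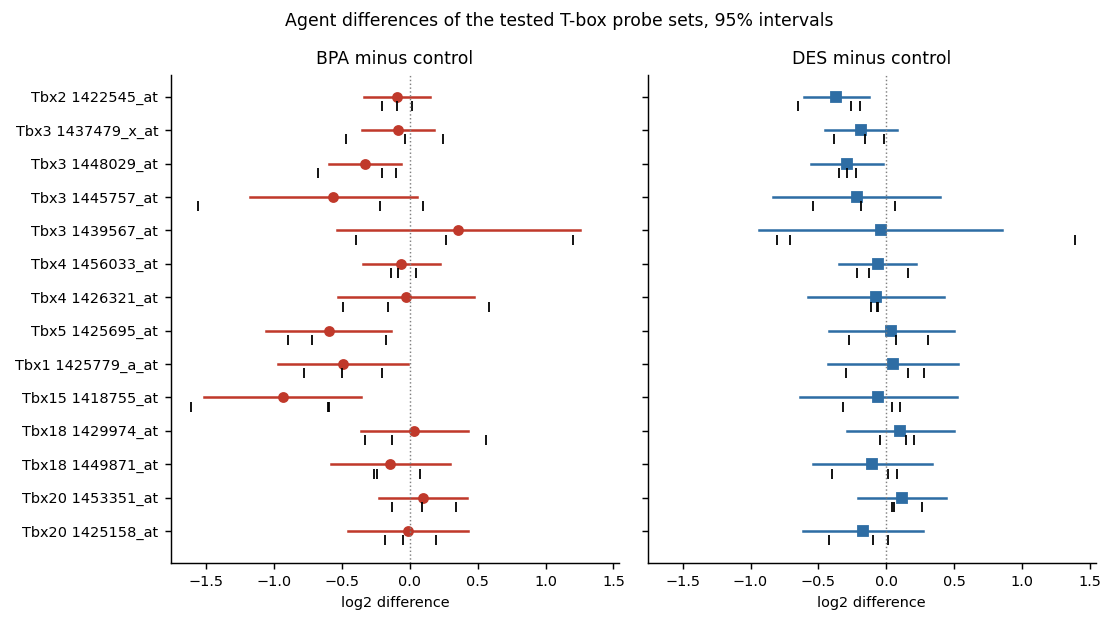
Log2 difference from control (horizontal axes) of the 14 tested T-box probe sets, for BPA on the left and DES on the right, with the fitted value as a symbol, its 95% interval as a line and the 3 within-age differences as short ticks below it. The BPA intervals of Tbx15 (-1.51 to -0.36), Tbx5 (-1.06 to -0.14), Tbx1 (-0.97 to -0.01) and Tbx3 1448029_at (-0.59 to -0.06) and the DES intervals of Tbx2 (-0.61 to -0.13) and Tbx3 1448029_at (-0.55 to -0.02) lie below 0, and 0 of the 14 passed after adjustment in either panel.

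Whether a difference from control drifted with age was tested by giving each agent a linear term in age. By limma 0 of 14 T-box probe sets passed for BPA and 0 for DES, as did 0% of all in both. The steepest BPA term by its error was that of the leading Tbx3 probe set, -0.36 ± 0.09 log2 units per age step (limma adjusted p = 0.455), with BPA minus control at 0.25, -0.04 and -0.47 at E17, E18 and P0. The last of these rests on the BPA P0 array. For Tbx20 the terms were -0.11 ± 0.18 with BPA and -0.10 ± 0.18 with DES, so its lower level at P0 was seen with and without exposure, and for Tbx15 they were 0.51 ± 0.34 and -0.03 ± 0.34.

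Probe sets of the same gene followed each other to different degrees across the 9 arrays, which share the group and age structure. The pair of Tbx18 had a Pearson r of 0.77, that of Tbx5 0.73, the brighter pair of Tbx20 0.73 and the brighter pair of Tbx3 0.65. The other tested probe sets of Tbx3 agreed less. Its 1445757_at had 0.76 with 1448029_at but 0.28 with the leading one. Its 1439567_at had -0.23 with the leading one, -0.18 with 1448029_at and -0.50 with 1445757_at. Tbx15 had 0.44 with its dim partner, and Tbx4 had 0.11, although both of its probe sets were tested. The second Tbx4 probe set, 1426321_at, read 64.4 on the BPA E18 array and 132 on the BPA P0 array, whereas the leading one read 219 and 218 there. The dim Tbx20 probe set had an r of -0.01 with the leading one. Which probe set reports the transcript better was not tested.

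**Figure D5:**
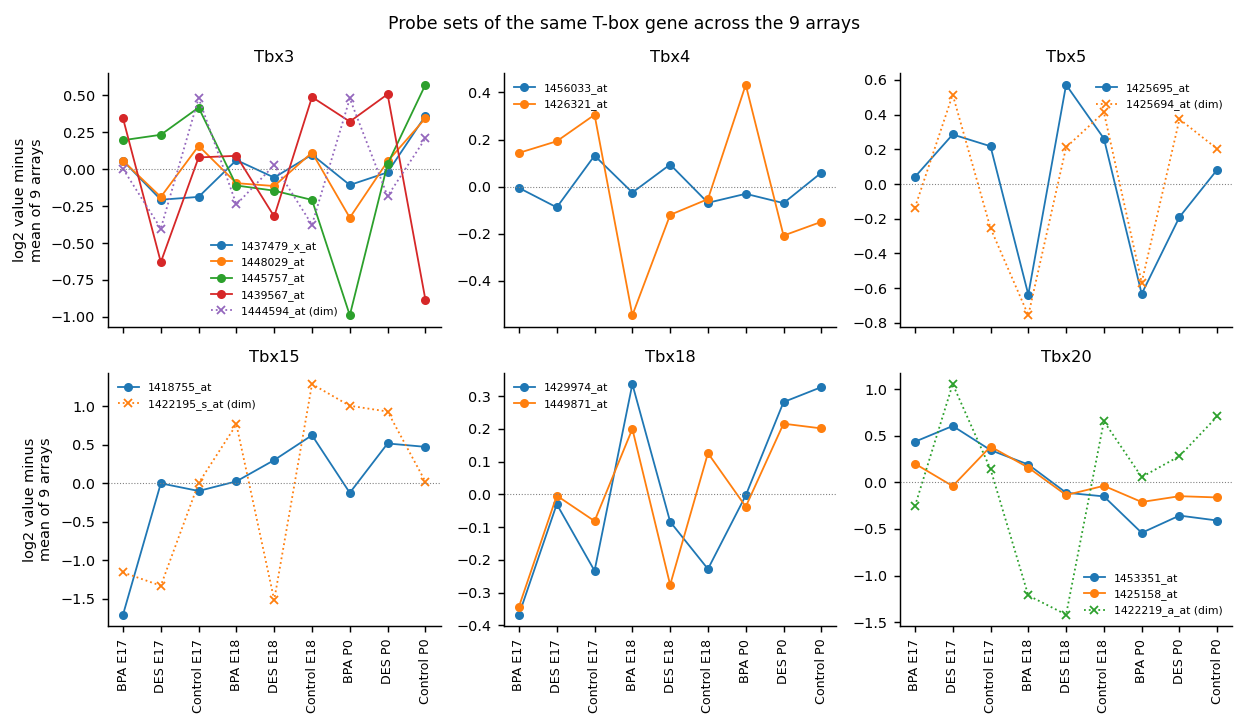
Log2 value minus its mean over the 9 arrays (vertical axes) for every probe set of the 6 genes with more than 1, over the arrays ordered by age and group (horizontal axis), where dotted lines with crosses are the 4 probe sets too dim for testing. The pairs of Tbx5 and Tbx18 trace similar outlines, and the dim probe sets of Tbx3, Tbx15 and Tbx20 depart from the brighter ones.

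For each member the tested genes with the most similar log2 profile over the 9 arrays were looked up, as a description. Nearest to Tbx20 was Crhbp, which encodes a binding protein of corticotropin-releasing hormone (r = 0.96). Crhbp read 287, 232 and 168 at E17, E18 and P0 on the BPA arrays, 306, 214 and 189 on the DES arrays, and 297, 222 and 154 on the control arrays, the same downward steps. Birc6, a ubiquitin-conjugating inhibitor of apoptosis (0.95), and Acot11, an acyl-CoA thioesterase (0.95), came next. Nearest to Tbx15 were Tceal7 (0.99), Csrp3, the muscle LIM protein (0.99), and the cytokine gene Il17b (0.98). Tceal7 read 93.1 on the BPA E17 array against 311 on the DES E17 and 298 on the control E17 array, so the BPA E17 array was low for both genes.

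Nearest to Tbx1 were Lrrc17 (0.98), the actin-bundling gene Lcp1 (0.96) and Coro2b (0.96), and nearest to Tbx2 were the transporter gene Slc35b1 (0.95), Fbxo21 (0.93) and Pcsk1n (0.93). Slc35b1 read 743, 689 and 612 on the DES arrays against 752, 788 and 873 on the control arrays. For Tbx5 they were Atxn7l3b (0.97), Amotl1 (0.94) and Klf13 (0.93), for Tbx3 Comp (0.94), Tfeb (0.94) and Lcp2 (0.93), for Tbx18 BC064078 (0.95), Cd55 (0.93) and Ccm2l (0.91), and for Tbx4 Tifa (0.93), Thrb (0.91) and 9430021M05Rik (0.91). With 9 arrays and 13408 genes to choose from, the 3 highest r of each member lay between 0.91 and 0.99.

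Of the other T-box genes 7 of 9 listed had a probe set annotated to them alone, and 3 were bright enough for testing. Mga, a T-box protein of the Myc network, read 478 to 707 over the 9 arrays, Tbx19 read 42.8 to 78.6 and Tbx6 read 30.9 to 56.6, and 0 of 3 passed in either agent comparison. Eomes, Tbr1, Tbx21 and Tbx22 stayed below the testing level, with 29.96 as their highest single value. Of the partners and targets of T-box factors 19 of 28 listed were tested, and 0 passed higher and 0 lower with either agent. Their median was -0.0038 with BPA and 0.03 with DES, beside -0.0043 and 0.0035 for all probe sets. Bmp2, a growth factor gene, was at -0.46 ± 0.18 with BPA (limma adjusted p = 0.59) and at -0.24 without the BPA P0 array. Cdkn1a, a cell cycle inhibitor gene that Tbx2 and Tbx3 repress, was at -0.33 ± 0.13 with BPA (adjusted p = 0.559), and again at -0.33 without that array. Nkx2-5, a homeobox partner of Tbx5 and Tbx20, was at 0.87 ± 0.27 with DES (adjusted p = 0.844), reading 61.7, 53.6 and 78.1 on the DES arrays against 26.0, 36.9 and 35.0 on the control arrays. Gata4, another heart partner that gonads also express, read 228 on the BPA P0 array and 34.6 to 63.2 elsewhere.

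Among 29 tested genes of urogenital and pelvic mesenchyme, 0 passed higher and 0 lower with either agent, and the medians were -0.06 with BPA and -0.03 with DES. Foxf2, a forkhead gene of gut and urogenital mesenchyme, was at -0.80 ± 0.16 with BPA (limma adjusted p = 0.329). It read 266, 311 and 264 on the BPA arrays, 501, 354 and 398 on the DES arrays, and 500.5, 419 and 569.6 on the control arrays, so that all BPA arrays lay below all others. Fendrr, a noncoding transcript beside Foxf1, was at -0.55 ± 0.17 and Twist1, a basic helix-loop-helix gene, at -0.37 ± 0.11 with BPA (adjusted p = 0.459 and 0.466). Without the BPA P0 array the differences were -0.73 for Foxf2, -0.52 for Fendrr and -0.34 for Twist1. Between P0 and E17, 1 gene of this list was higher and 4 were lower with no overlap, and of the partners and targets 1 of 19 was higher and 4 were lower, beside 9.94% higher and 9.92% lower of all tested probe sets. Fgf10, the limb target of Tbx4 and Tbx5, differed by -0.34 between P0 and E17, reading 32.9, 37.2 and 41.3 at P0 against 47.0, 49.1 and 48.4 at E17 on the BPA, DES and control arrays. Hand2, a mesenchymal factor gene, differed by -0.35, and Meis1, a homeobox gene, by -0.49. Fendrr had the largest difference of the mesenchyme list between P0 and E17, at -1.04. It read 93.4, 164 and 122 at P0 on the BPA, DES and control arrays, against 206, 258 and 327 at E17.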

How the data were processed

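The study measured transcripts of mouse urogenital sinus on 9 arrays. The deposited values were probe set intensities on a linear scale, and MAS5, the Affymetrix summary method, is named per the submitters' processing notes; its version and scaling target are not given in the sources used here. Gene symbols came from the annotation of the platform, in which 34958 had 1 gene symbol, 932 several and 9211 none. The members and the gene lists were chosen with earlier results of these data known.

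Because the deposited intensities were unscaled, signals were quantile-normalised and analysed on the log2 scale after adding 5.46, a pseudocount set at the 10th percentile of the values, so fold changes of dim probe sets are understated. Testing took probe sets whose mean log2 value reached the 40th percentile (5.54), leaving 27022, without the 64 control probe sets. Agents were compared in limma (version 3.58.1, under R 4.3.3) by lmFit on the 9 arrays together, with age as a 3-level factor beside agent, and by eBayes with trend, with 4 residual degrees of freedom and Benjamini-Hochberg adjustment over all tested probe sets. The model with a linear age term per agent left 3 residual degrees of freedom, where the plan had counted fewer. The fit was tested on simulated data. Arrays carry no count depth, and their number limits the precision.

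Samples were grouped by the agent and age in the labels. All 8 members with every probe set were named, with the 3 genes of highest Pearson r per member and, per list, genes past the threshold or up to 4 with the largest difference, of which the text gives a selection, and the values by array of Mga, Tbx6, Tbx19, Foxf2 and the markers for context. Alternatives were deposited values, trimmed-mean scaling, other pseudocounts and filters, 1 probe set per gene, no intensity trend, the 6 arrays of a comparison alone, each array left out, other probe sets and, chosen after seeing the data, the fit leaving out BPA at E18 and P0. The last of these fits leaves only the BPA E17 array in the BPA group. Replicates share no number in the labels, and age served as the block.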

Additional observations from a re-analysis of the deposited data

How the results depend on the processing

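Member calls were 0 in the BPA, DES and BPA-against-DES comparisons under all 19 alternatives of each. Over all probe sets the DES count stayed at 0. The BPA count of 0 became 33 with deposited values, 2 with the filter at the 60th percentile and 2 with 1 probe set per gene. Without a single array it was 0 to 8. The BPA-against-DES count became 38 with deposited values and 6 without BPA at E18 and P0, and 0 to 5 without a single array. The count of age terms became 104 with deposited values. The causes were not tested; with deposited values the median BPA difference of all probe sets was -0.24. The 4 member probe sets (of 3 genes) without overlap between P0 and E17 became 2 with the filter at the 60th percentile, which leaves fewer probe sets. The count became 7 without BPA at E18 and P0, and 4 to 7 without a single array, 7 being without BPA P0. With fewer arrays at an age, no overlap is easier to reach. The share of all probe sets under these settings is not given, so no stronger age pattern can be read from these counts.

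With deposited values the BPA differences of Tbx18 (-0.22) and Tbx20 (-0.14) and the DES difference of Tbx4 (0.017) had the other sign, but relative to the median of all probe sets the 8 leading probe sets kept their sign under all 3 scalings. Leaving out BPA at E18 and P0 leaves only the BPA E17 array in its group. In that setting the BPA differences of Tbx3 (0.16) and Tbx18 (-0.19) had the other sign. Without a single array, BPA differences ran from -0.16 to 0.0059 for Tbx2, -0.21 to 0.058 for Tbx3, -0.22 to 0.18 for Tbx18 and -0.041 to 0.20 for Tbx20, and DES differences from -0.18 to 0.16 for Tbx5, -0.14 to 0.22 for Tbx1, -0.31 to 0.16 for Tbx15 and -0.043 to 0.23 for Tbx18. Tbx15 (-1.70 to -0.56), Tbx5 (-0.80 to -0.19) and Tbx1 (-0.90 to -0.29) with BPA kept their sign in all 18 alternatives testing them. The stricter filter left these genes untested. Tbx2 with DES (-0.44 to -0.26) kept its sign in all 19. Limma adjusted p for these differences ran from 0.123 upward. Smaller differences kept their sign too: Tbx4 with BPA (-0.31 to -0.0028), Tbx3 with DES (-0.31 to -0.041) and Tbx20 with DES (0.043 to 0.22). A kept sign therefore does not set the larger differences apart. Arrays of the same age were matched in every agent fit through the age term.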
